A study of Dunaliella salina with 9 samples.

Results

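The clusters described here are the transcripts of Dunaliella salina that took nearly the same share of the RNA under blue, red and white light. A cluster was a member if it had at least 50 CPM (counts per 1e6 counts of the library) in each of the 9 libraries and if its highest CPM was at most 1.5 times its lowest. Of 115975 clusters, 1578 had at least 50 CPM in every library, and 371 of these, or 23.5%, also met the limit on the ratio. The members were thus chosen by their CPM in all 9 libraries and all 3 lights, so that differences between lights within the 371 are given as descriptions. No p-value of a member is given, and counts of members called by the fit over all clusters stand beside the share in all clusters, with nothing read from them.

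D. salina is a unicellular green alga of salt waters, known for accumulating β-carotene. Cells in mid-exponential growth were moved to fresh medium and lit with blue light of 450 nm (3 libraries), red light of 660 nm (3 libraries) or cool white light (3 libraries), each at a flux of 50 µmol photons per m2 and s. Before that, all cultures had been kept under white fluorescent lamps at 22 °C with 14 h of light and 10 h of darkness. The strain, the time spent under the new light and whether each library came from a culture of its own are not stated in the labels, so the spread between libraries may in part be technical. Nor do they say whether the lights shared a date or batch, so that light and batch cannot be told apart. The libraries held 17905778 to 19921151 counts for blue light, 17674678 to 24526786 for red light and 16279167 to 19888088 for white light.

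Light reaches the nucleus and the chloroplast of green algae through photoreceptors, such as phototropins and cryptochromes that absorb blue light, and through the state of photosynthetic electron transport. Transcripts whose share of the RNA stays nearly constant across conditions are of practical use as reference genes in quantitative PCR, where a target is expressed relative to them. Genes for ribosomal proteins, tubulin or ubiquitin are common choices in algae. The files do not pair cluster identifiers with gene names, and none of the 115975 identifiers occurs among the 16683 genes of the D. salina reference table, so that no member can be given a name or a function here. Identifiers are printed for 4 clusters only, and other members are called by their rank in mean CPM.

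The white libraries stood apart from the others in a way that touches every result below. Across the 371 members, the SD over the mean of the 3 libraries of a light had a median of 3.26% in blue, 3.27% in red and 7.32% in white. White 3 lay between white 1 and white 2 in 270 members, or 72.8%, and in 1081 of the 1207 other clusters with at least 50 CPM everywhere, or 89.6%. In blue and red the library that was most often in the middle, replicate 2 in both, was there in 42% and 50.4% of members. Among the 136 members whose white 1 and white 2 differed by more than 1.2-fold, white 3 stood at a median of 60.1% of the way from white 1 to white 2, with quartiles of 49.8% and 72.4%. The same position was 60.7% in 909 of the other abundant clusters, with quartiles of 52.5% and 68.5%. What produced this order was not tested. Without white 3 the rule gave 382 members in place of 371.

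The member with the most reads was Cluster-15686.47629, with 2153, 2241 and 2164 CPM in blue 1 to 3, 1627, 1670 and 1806 CPM in red 1 to 3, against 1530, 2250 and 1970 CPM in white 1 to 3. Every blue library was above every red library, and the white libraries spanned the whole range of both, with white 1 below and white 2 above all others. It was also among the shorter members, with an effective length (the number of positions at which a read can start) of 355 bases, and its level per length, at a mean of 5419 FPKM (counts per kilobase and per 1e6 counts), was the highest of the members. The steadiest member was Cluster-15686.49062, with 100.3, 96.4 and 100.3 CPM in blue 1 to 3, 96.8, 93.6 and 95.4 CPM in red 1 to 3, against 93.3, 96.0 and 97.9 CPM in white 1 to 3. Its libraries overlapped between all lights, and its highest CPM was 1.08 times its lowest. It was the only member with a ratio of 1.1 or less. With TMM, a scaling explained below, its log2 fold change was -0.312 for red against white and -0.365 for blue against white.

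Just inside the limit stood Cluster-15686.47966, with a ratio of 1.499. It had 105.8, 92.2 and 90.5 CPM in blue 1 to 3, 89.9, 94.8 and 92.9 CPM in red 1 to 3, against 81.7, 122.4 and 108.9 CPM in white 1 to 3. Its whole range lay within white light, between white 1 and white 2, and the blue and red libraries fell between them. Just outside stood Cluster-15686.52778, with a ratio of 1.501. It had 199.4, 205.6 and 210.1 CPM in blue 1 to 3, 154.1, 155.5 and 174.7 CPM in red 1 to 3, against 140.0, 160.9 and 156.2 CPM in white 1 to 3, so that every blue library was above every red and every white one. On the side of the CPM limit, the member nearest to it had a lowest value of 50.07 CPM, and the nearest cluster left out had 49.90 CPM with a ratio of 1.19.

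The limit on the ratio passed through a dense part of the distribution and did not separate a group. Of the members, 33 had a ratio above 1.1 and up to 1.2, 80 above 1.2 and up to 1.3, 112 above 1.3 and up to 1.4, and 145 above 1.4 and up to 1.5. The next steps held 149 clusters up to 1.6 and 141 up to 1.7. The median ratio was 1.36 in the members and 1.82 in all 1578 clusters with at least 50 CPM everywhere.

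**Figure D1:**
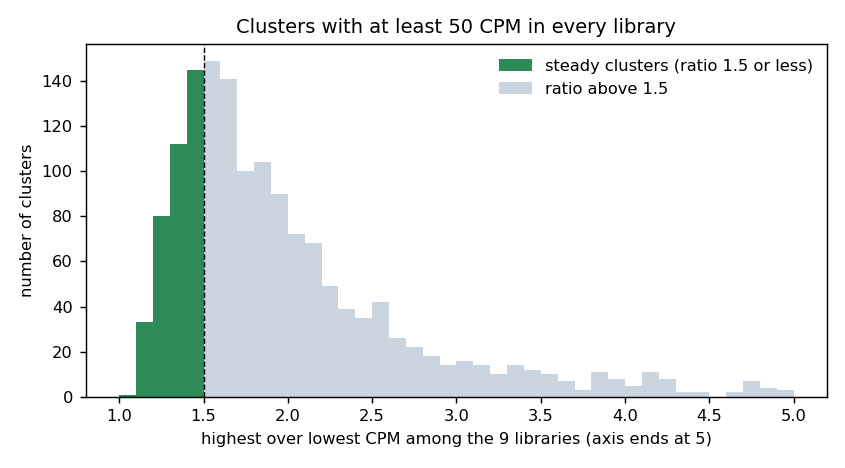
Number of clusters (vertical axis) by the ratio of highest to lowest CPM among the 9 libraries (horizontal axis, steps of 0.1, ending at 5, with 89 clusters beyond it), for the 1578 clusters with at least 50 CPM in every library. The 371 steady clusters are drawn in green to the left of the limit at 1.5, and the counts pass the limit without a gap.

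Together the members held a small and even part of the RNA. They took 6.66%, 6.65% and 6.66% of the counts in blue 1 to 3, 6.55%, 6.59% and 6.75% in red 1 to 3, against 6.5%, 6.7% and 6.58% in white 1 to 3. The 1207 other abundant clusters took 51.3% to 52.8% in blue, 53.6% to 55.1% in red and 56% to 60.7% in white. The evenness of the members' sum follows from the way they were chosen.

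Most members were of moderate abundance. Their mean CPM ranged from 54.7 to 1935, with a median of 103, and 176 of them had a mean under 100 CPM. Of the abundant clusters with a mean of 100 to 200 CPM, 115 of 512, or 22.5%, were steady. From 200 to 500 CPM it was 61 of 320, or 19.1%, from 500 to 1000 CPM 10 of 123, or 8.13%, and from 1000 CPM upwards 9 of 162, or 5.56%. Under 100 CPM the share was 38.2%, but there a cluster with a large ratio would fall below 50 CPM in some library, so that this class is not comparable with the others. The same limit also bars the largest ratios above 100 CPM, less so as the mean rises, and its part in these shares was not tested. Of the 100 clusters with the highest mean CPM in the series, 4 were members, at places 52, 60, 63 and 80.

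These 4 differed in which light was highest. The second member by rank had 2064, 2063 and 1978 CPM in blue, 1562, 1586 and 1663 CPM in red, and 1397, 1875 and 1758 CPM in white, with every blue library above all others. The third had 1394, 1451 and 1426 CPM in blue, 2024, 1963 and 2084 CPM in red, and 1681, 1853 and 1740 CPM in white. Here the lights did not overlap at all, with blue lowest, white between and red highest. The fourth had 1736, 1798 and 1650 CPM in blue, 1252, 1350 and 1492 CPM in red, and 1345, 1847 and 1662 CPM in white. As in the first member, blue was above red throughout and white spanned most of the range.

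Further down, the member of rank 8 was the most even of the 9 with a mean of 1000 CPM or more. It had 982.5, 1017 and 1149 CPM in blue, 1074, 1047 and 998.4 CPM in red, and 1155, 935.5 and 1040 CPM in white, a ratio of 1.23 with all lights overlapping. The member of rank 9 had 981.1, 1006 and 1016 CPM in blue, 1206, 1179 and 1225 CPM in red, and 819.8, 886.3 and 836 CPM in white. Its lights were fully separated, with a mean in red 1.42 times that in white, although its ratio of 1.495 met the limit.

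**Figure D2:**
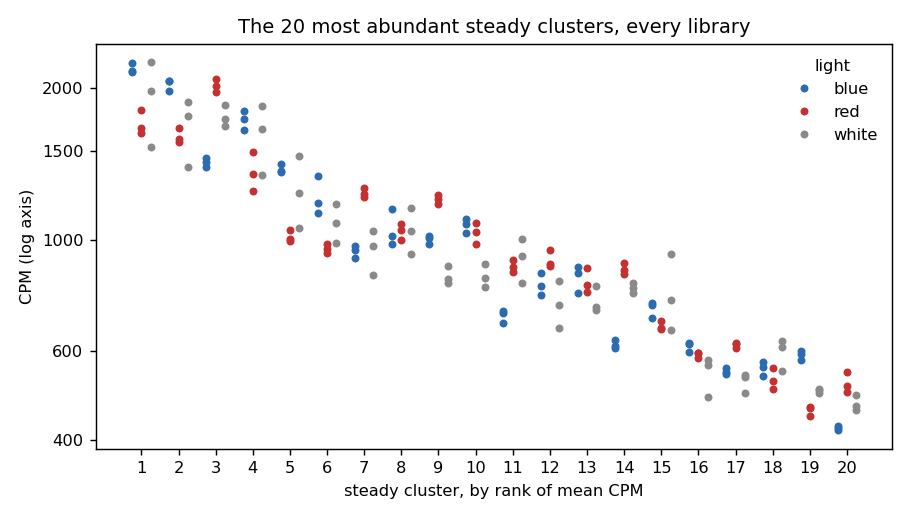
CPM (vertical axis, logarithmic) of the 20 steady clusters with the highest mean CPM (horizontal axis, rank), with 1 point for each library of blue, red and white light. Several clusters, such as ranks 3 and 9, have lights that do not overlap, while the white points of ranks 1, 5 and 15 spread over most of the cluster's range.

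The 10 steadiest members had mean levels between 92.99 and 337.7 CPM. The second steadiest had 127.5, 125.0 and 122.9 CPM in blue, 130.6, 135.5 and 134.8 CPM in red, and 132.9, 130.8 and 135.5 CPM in white. Every blue library was below every red and every white one, within a ratio just above 1.1. The fifth steadiest had 357.3, 348.2 and 330.6 CPM in blue, 323.6, 335.3 and 342.7 CPM in red, and 336.8, 343.1 and 321.6 CPM in white, with all lights overlapping. The seventh had 204.3, 203.8 and 208.1 CPM in blue, 209.9, 206.6 and 208.9 CPM in red, and 224.1, 214.7 and 227.2 CPM in white, with white above the rest in every library. Together the 10 had ratios of 1.08 to 1.12 and effective lengths of 996 to 4536 bases.

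Counting error was small beside the limit. Members had between 823 and 1249 counts at the least, depending on the library, and the median member had 2506 counts in red 1 and 1651 in white 3, the highest and the lowest of the 9. The SD that counting alone would give, the inverse square root of the count, had a median of 2.23% of the value in blue, 2.11% in red and 2.32% in white, and was at most 3.49%. The observed spread within blue and red had medians of 3.26% and 3.27%, and that within white 7.32%. The rule bounds this spread in the members, so nothing is read from how near it comes to counting error. In 278 members the 3 blue libraries lay within 1.1-fold of each other, in 277 the red ones, and in 116 the white ones. An SD above 10% of the mean was seen in 7 members in blue, 4 in red and 125 in white. White was also widest in the 1207 other abundant clusters, with medians of 4.63% in blue, 4.09% in red and 16.7% in white. Counting alone would give medians of 1.82%, 1.72% and 1.86% there. No molecular identifiers are mentioned in the labels, so these figures cover counting error only.

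**Figure D3:**
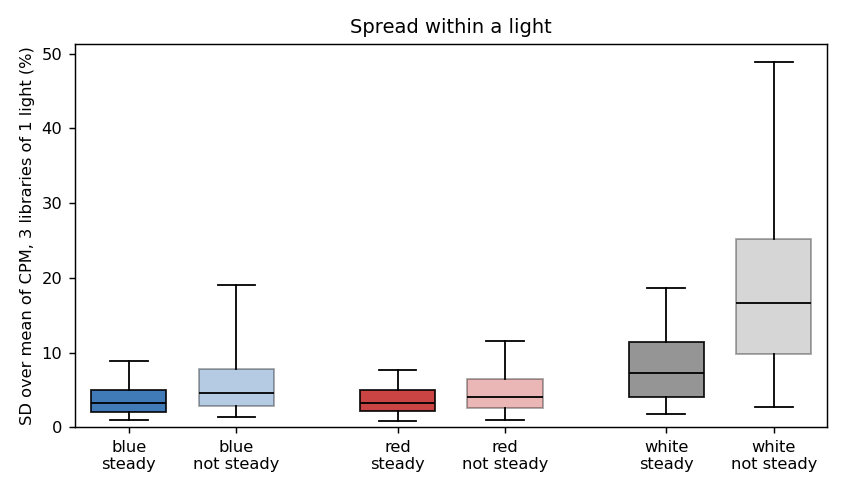
SD over mean of CPM among the 3 libraries of a light, in percent (vertical axis), for the 371 steady clusters and the 1207 other clusters with at least 50 CPM everywhere. Boxes show quartiles with the median as a line and whiskers the 5th and 95th percentiles, and white light has the widest spread in both classes.

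White 1 and white 2 set the edges of the range most often. White 1 was the highest library in 71 members and the lowest in 75, white 2 the highest in 78 and the lowest in 76, and white 3 the highest in 11 and the lowest in 25. Among the others, blue 1 was the highest in 55 members and red 3 in 50, and red 1 was the lowest in 48.

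The spread that the rule left in the members was also divided into parts between and within lights. Some share lies between lights even where the lights do not differ. The rule used these same values, and light cannot be told apart from batch, so the shares are descriptions only. The share of a member's sum of squares in log2 CPM that lay between lights had a median of 72.6%, with quartiles of 48% and 86%. It was above 50% in 272 members, above 75% in 169 and below 25% in 35. In the 1207 other abundant clusters the median was 85%. The highest of the 3 light means was 1.2 times the lowest at the median and 1.45 times at most, and it was within 1.1-fold in 50 members and above 1.3-fold in 57.

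The highest and the lowest light varied from member to member. The mean was highest in blue in 139 members, in red in 107 and in white in 125, and lowest in blue in 122, in red in 124 and in white in 125. Each of the 6 possible orders was found in 52 to 73 members. Principal components of the members' log2 CPM were taken with the clusters and then the libraries centred. The first (40% of the variance) set blue (weights of 0.43 to 0.46) against white (-0.39 to -0.31), with red near 0 (-0.11 to -0.09). The second, with 32.2%, set red (0.42 to 0.48) against white (-0.43 to -0.14) and blue (-0.20 to -0.10). The third, with 18.8%, set white 1 (0.81) against white 2 (-0.54), with white 3 near 0 (-0.02).

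The largest differences between light means among the members were in ranks 57 and 101. Rank 57 had 192.5, 190 and 192.5 CPM in blue, 276.1, 281.8 and 274.2 CPM in red, and 271.7, 261.8 and 255.8 CPM in white, with blue well below both and white just under red. Rank 101 had 140.1, 140.7 and 138.7 CPM in blue, 168.3, 171.6 and 152.4 CPM in red, and 205.1, 202.4 and 199.5 CPM in white, in 3 separate steps. Both reached 1.45-fold between their highest and lowest light.

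Red light was set against white light first. On CPM, the mean in red over that in white had a median of 0.997 in the members, with a range of 0.71 to 1.42, and was above 1 in 180 members and below 1 in 191. It was within 1.2-fold in 291. The libraries did not overlap in 181 members: 97 had every red library above every white one, against 38.3% of the 38376 clusters that could be tested, and 84 every red library below every white one, against 17.4%.

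Blue against white gave a like picture on CPM. The mean in blue over that in white had a median of 1.00 and a range of 0.691 to 1.4. It was above 1 in 191 members and below 1 in 180, and within 1.2-fold in 267. In 100 members every blue library was above every white one (39.2% of all tested clusters), and in 89 every one was below (14.1%). Both comparisons use the same 3 white libraries.

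Blue against red, the direct comparison of the narrow bands, had a median ratio of means of 1.01 and a range of 0.691 to 1.39, and 276 members were within 1.2-fold. Every blue library was above every red one in 123 members (21.3% of all tested clusters) and below in 111 (12.7%). In 59 of the 371 members the libraries overlapped in all 3 comparisons (26.3% of all tested clusters), and in 59 they overlapped in none (14.4%). As the rule used these same values, the counts are given beside those of all clusters without a reading.

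Whether the members lay level with white or below it differed between scalings of the libraries. CPM divides by the library total. TMM (trimmed mean of M values) instead averages the log ratios between libraries with more weight on well-counted clusters, after trimming the extremes, and sets that average to 0. Its factors were 1.09 to 1.16 in blue, 1.00 to 1.07 in red and 0.787 to 0.937 in white. With TMM the median log2 fold change of the members was -0.31 for red against white, -0.41 for blue against white and -0.09 for blue against red. With library totals the medians were -0.01, 0.01 and 0.02. The median over all 38376 tested clusters moved in the same direction, being 0.31 with TMM and 0.59 with library totals in red against white, and 0.28 and 0.66 in blue against white. Relative to that median the members lay 0.62 lower in red and 0.69 lower in blue with TMM, and 0.60 and 0.66 lower with library totals. This was not particular to the members. The 1207 other abundant clusters had median log2 fold changes of -0.271 in red and -0.366 in blue against white with TMM. Which scaling comes closer to the amount per cell cannot be told from these files.

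**Figure D4:**
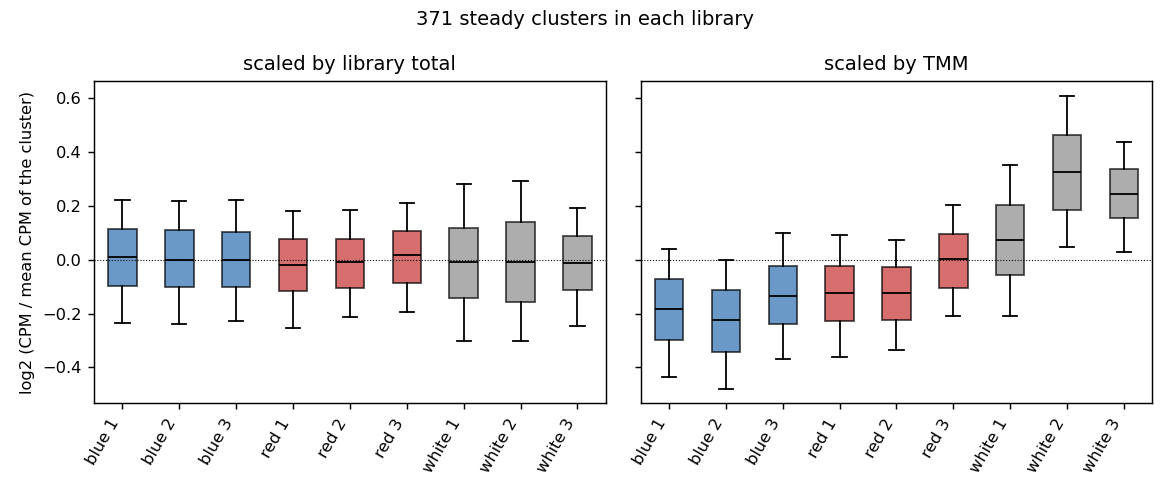
Log2 ratio of the CPM in a library to the mean CPM of the cluster (vertical axis) for the 371 steady clusters in each library (horizontal axis), with library totals on the left and TMM on the right. Boxes show quartiles with the median as a line and whiskers the 5th and 95th percentiles. Medians lie between -0.020 and 0.017 with library totals, and with TMM between -0.225 and -0.135 in blue, -0.125 and 0.003 in red and 0.072 and 0.327 in white.

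The calls that follow come from the same libraries as the rule, which bars large differences, so nothing is read from them. The fit over all clusters (edgeR's quasi-likelihood test on TMM-scaled counts, Benjamini-Hochberg adjusted p under 0.05) called 159 members lower in red than in white and none higher. Of all tested clusters, 16.9% were called lower and 17.0% higher in that comparison. Of the 1207 other abundant clusters, 476 were called lower and 173 higher. No member was higher at an unadjusted p under 0.05 and 213 were lower, against 24.9% and 21.8% of all tested clusters. DESeq2 called 0 members higher and 191 lower, against 24.8% and 21.2% of all tested clusters. The 159 had a median ratio of mean CPM in red over white of 0.885 and a minimum of 0.71, and it was above 1 in 7 of them. In blue against white 211 members were called lower and none higher, against 14.7% and 14.1% of all tested clusters. Of the 1207 other abundant clusters, 536 were called lower and 156 higher. At an unadjusted p under 0.05, 248 members were lower and 0 higher, against 20.5% and 22.1% of all tested clusters. DESeq2 called 246 members lower and 0 higher, against 19.8% and 21.1%. Of the 211, 39 had a higher mean CPM in blue than in white, by up to 1.11-fold. With library totals, the scaling of the rule itself, 39 members were called higher and 37 lower in red, against 21.0% and 11.9% of all tested clusters, and 53 higher and 46 lower in blue, against 20.8% and 9.07%. There the rule bounds the size of each member's difference. The median ratio of mean CPM in the 1207 other abundant clusters was 1.02 for red over white and 1.03 for blue over white. With TMM and without red 2, 54 members were called lower in red than in white, beside 3953 of 41702 tested clusters. Without red 1 it was 57 (3732 of 41626 tested clusters) and without white 3 it was 80 (4228 of 42407). Without white 1 it was 246 members, beside 8815 of 42683 tested clusters. Members called lower in blue than in white were 113 without blue 2 (3402 of 41799 tested clusters) and 124 without blue 1 (3473 of 42492). Without white 3 they were 120 (3514 of 42407).

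Between blue and red, 14 members were called lower in blue and none higher, where 1.02% of all tested clusters were lower and 0.667% were higher. Of the 1207 other abundant clusters, 161 were called lower and 45 higher in blue. At an unadjusted p under 0.05, 93 members were lower and 21 higher in blue, against 5.77% and 5.98% of all tested clusters. DESeq2 called 48 members lower and 6 higher, against 3.30% and 2.95%. The 14 had a mean CPM in blue of 0.691 to 0.811 times that in red, and in all 14 every blue library was below every red one. Rank 57, with 190 to 192.5 CPM in blue and 274.2 to 281.8 CPM in red, had the lowest of these ratios. Next came rank 3, at 0.704, and a member with 614, 610 and 632 CPM in blue, 855, 872 and 900 CPM in red, and 803, 821 and 785 CPM in white, at 0.706. Without any 1 of the blue or red libraries, or without white 3, none of the 371 was called by edgeR. Of 41626 to 42575 tested clusters, 120 to 235 were called there. At an unadjusted p under 0.05, 7 to 29 members were higher and 50 to 79 lower in blue. Over all tested clusters 1573 to 2276 were higher and 1637 to 2094 lower. Without white 1 the count was 38 members, beside 1376 of 42683 tested clusters. With the red and blue libraries alone in the fit it was 81, of which 18 were higher and 63 lower in blue, against 5.81% and 5.24% of the clusters tested there.

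As the scaling moved the members as a group, the rule was also applied to scaled values. With TMM-scaled CPM 317 clusters were steady, of which 139 were members, that is 37.5% of the members and 43.8% of the 317. With size factors (RLE) 274 were steady, of which 85 were members, 22.9% of the members and 31% of the 274. These 85 met the rule with all 3 scalings. The label of steady abundance therefore holds for the 371 as a share of the counts, and for 85 of them whichever of the 3 scalings is used.

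The 85 clusters had a mean CPM of 58.4 to 1044, with a median of 96.2, and effective lengths of 456 to 6946 bases, with a median of 2071. On CPM nearly all leaned towards the narrow bands: the mean in blue was above that in white in 83 of 85 and the mean in red above that in white in 73 of 85, with median ratios of 1.19 and 1.15. That lean follows from the choice, since TMM lowers blue and red against white. The most abundant of them was rank 8, described above, with a ratio of 1.23 by library totals and 1.45 by TMM. Rank 10 had 1100, 1031 and 1076 CPM in blue, 1079, 1034 and 980.8 CPM in red, and 895.9, 804.9 and 841.1 CPM in white. Its white libraries were the lowest on CPM, and its ratio was 1.37 by library totals and 1.15 by TMM. Rank 13 had 883.3, 858.3 and 783.8 CPM in blue, 787.3, 814.3 and 877 CPM in red, and 810.9, 723.8 and 735.5 CPM in white, and its ratios, 1.22 and 1.28, were low with both scalings. Rank 32 had 376.7, 364.6 and 372.5 CPM in blue, 379.8, 366.9 and 372.8 CPM in red, and 317.4, 281.4 and 301.8 CPM in white, with blue and red level and white below both.

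The libraries that held the list down were white 1 and white 2. When the rule was applied to 8 libraries, 379 to 396 clusters met it without any 1 of the blue or red libraries, and 93.7% to 97.9% of these also met it with the library left out. Without white 3 the number was 382, of which 97.1% met it with white 3. Without white 1 it was 501, of which 74.1% met it with white 1, and without white 2 it was 555, of which 66.8% met it with white 2. The CPM in a library that had no part in the choice was within 1.2-fold of the mean of the other 8 in 85.6% to 88.1% of the clusters for blue, 88.3% to 93.9% for red, and 57.3%, 51.2% and 89% for white 1 to 3. White 2 lay more than 1.5-fold below that mean in 47 of the 555 clusters and more than 1.5-fold above it in 4, and white 1 in 10 and 16 of 501.

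Leaving out a whole light gave the level of that light in clusters chosen without it. The limit of 50 CPM then held only in the 6 libraries kept, so a cluster could enter however low it was in the light left out. The levels that follow may in part come from this choice, which was not tested. On the 6 red and white libraries 698 clusters were steady, and the mean CPM in blue was 0.994 times that in the other 6 at the median, with a 5th percentile of 0.528 and a 95th of 1.58. On the 6 blue and white libraries 577 were steady, and the mean in red was 0.978 times that in the others at the median, with percentiles of 0.692 and 1.43. On the 6 blue and red libraries 1730 were steady, and the mean in white was 0.788 times that in blue and red, with percentiles of 0.199 and 1.54. In 733 of these 1730, or 42.4%, every white library lay below all 6 others, and in 220, or 12.7%, every one lay above. Over all 38376 tested clusters the shares leaned the same way, at 28.8% and 11.5%. Of the 1730, 371, or 21.4%, kept to the limit in white as well. The clusters with at least 50 CPM everywhere that were not steady took 51.3% to 55.1% of the counts in blue and red and 56% to 60.7% in white, and the part of this in the result was not tested.

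**Figure D5:**
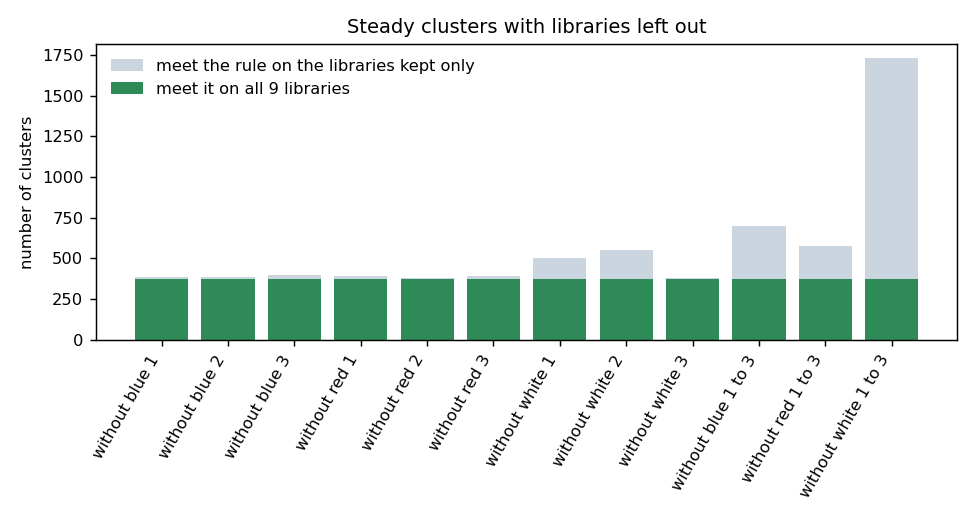
Number of clusters that met the rule on the libraries kept (whole bar) and on all 9 libraries (green, 371 in each bar), with 1 library or the 3 libraries of 1 light left out (horizontal axis). The bar without white 1 to 3 reaches 1730, and those without a single blue or red library stay between 379 and 396.

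Length and the division of reads were not used by the rule. The members had effective lengths of 340 to 6946 bases, with a median of 1679, close to the median of 1680 in the 1207 other abundant clusters, whose range was 10.3 to 14173 bases. Short clusters were rarer among the members: 45 of 371, or 12.1%, were under 1000 bases, against 320 of 1207, or 26.5%, and none was under 300 bases, against 28. From 3000 bases upwards it was 14.8% of the members and 19.2% of the others. Since the members were less abundant, with a median of 103 CPM against 165 CPM, the lengths were also set side by side within classes of mean CPM. Under 1000 bases were 13.1% of members and 20% of the others below 100 CPM, 10.4% and 23.7% from 100 to 200 CPM, 13.1% and 22.4% from 200 to 500 CPM, and 10.5% and 41.7% (2 of 19 and 111 of 266) from 500 CPM upwards. The difference had the same direction in all 4 classes, and no test was made of it.

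Per length, the members ranged from 10.3 to 5419 FPKM with a median of 67.1 FPKM, against a median of 115 FPKM in the other abundant clusters. Whole counts in all 9 libraries, as seen where no read had to be divided between clusters, were found in 189 members, or 50.9%, against 467 of the others, or 38.7%, and 51.5% of all clusters. From 100 to 200 CPM it was 50.4% of members and 36% of the others, and from 500 CPM upwards 42.1% and 38.7%. The median ratio was 1.37 in members with whole counts and 1.35 in the 182 with divided counts. All 371 members, like all 1207 others, carry 15686 as the first number of their identifier, as do 82.9% of all clusters.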

How the data were processed

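Each of the 9 libraries of total RNA had 1 deposited table, listing counts and FPKM of 115975 clusters. The deposited counts are estimated counts, not scaled, judged from the values: 21.6% to 33.9% per library are not whole. The FPKM values deposited by the authors were used only for the effective length, as the median over libraries with at least 50 counts, and in 1 alternative. Aligner, counting tool and assembly are not given in the sources used here; the submitters' processing notes name DESeq 1.10.1. Per the labels' protocols, RNA was taken with Trizol and libraries were made from 1.5 µg with a NEBNext Ultra kit.

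Members were found on unrounded counts. Rounded counts of the 38376 clusters that passed filterByExpr were fitted with edgeR 4.0.16 (R 4.3.3; TMM, glmQLFit robust, glmQLFTest), all 9 libraries in 1 fit with light as the only term, and p-values were adjusted over all tested clusters. The code was tested on simulated counts. Alternatives were RLE, library totals, DESeq2 1.42.0, no filter, other limits of the rule, a replicate block, fits of 2 lights and libraries left out. The FPKM ratio, the overlap of 3 scalings, TMM-scaled overlap and the position of white 3 were added after seeing the data.

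The members, comparisons and alternatives were chosen with earlier results of these data known. Named clusters were the members with the highest mean CPM, the lowest and the highest ratio, and the first cluster past the limit. Between libraries of 1 light, chi-square per degree of freedom was 7 or more for every pair. The counts were estimates, in part divided between clusters. The values therefore do not show whether the libraries came from separate cultures or preparations. Same-numbered libraries showed correlations of 0.005 to 0.066 between their deviations over the tested clusters, and they were not treated as pairs. Low counts in many of those clusters may weaken such correlations, so this does not exclude pairing.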

Additional observations from a re-analysis of the deposited data

How the results depend on the processing

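The 371 steady clusters became 114 with a ratio of 1.3 and 955 with a ratio of 2. With a minimum of 20 CPM they were 928, and with 100 CPM 159. Among whole counts they were 189. Without the blue, red or white libraries they were 698, 577 and 1730, and with 1 library left out 379 to 555. TMM (317), RLE (274) and the deposited FPKM (379) kept the number within 1.5 times. Of those, 139, 85 and 369 respectively were members, so with TMM and RLE most members left the list. Members called in red against white, 159 by edgeR, were 76 with library totals, 55 at an adjusted p under 0.01, 94 in a fit of both lights alone, and 54 to 246 with 1 library left out. In the same order, the calls over all tested clusters were 13012, 12612 and 6235 of 38376, and 9310 of 33708. They were 7675 to 19979 of 41626 to 42683 with 1 library left out. In blue against white, 211 became 99, 111 and 127 under the same alternatives, and 113 to 273 with 1 library left out. Over all tested clusters the calls were 11063, 11473 and 5651 of 38376, 7697 of 32789, and 7050 to 18120 with 1 library left out. In blue against red, 14 became 4 with RLE, 54 with DESeq2, 3 without the filter, 0 at an adjusted p under 0.01, 81 in a fit of both lights alone, and 0 to 38 with 1 library left out. The 647 calls over all tested clusters became 494 with RLE, 2400 with DESeq2 and 432 of 109342 without the filter. They were 139 at an adjusted p under 0.01, 3894 of 35237 with both lights alone, and 120 to 1376 with 1 library left out. With the replicate block, whose numbers were not taken as pairs, the counts of members called were 127, 178 and 0. Over all 38376 tested clusters they were 10033, 8565 and 194. In blue against red at an unadjusted p under 0.05, 18 members were higher and 87 lower. Over all tested clusters 1929 were higher and 1995 lower in blue. The members' median log2 fold changes moved to -0.01, 0.01 and 0.02 with library totals, and ranged over -0.37 to -0.27, -0.47 to -0.34 and -0.12 to -0.03 with 1 library left out. Stricter limits leave fewer clusters by construction; for the other alternatives the cause was not tested. Members had at least 823 counts in each library, a minimum that follows from the limit of 50 CPM.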
